A study of Mus musculus with 5 samples.

Results

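The surface markers of the stem cell sort are a list of 9 genes, Kit, Ly6a, Slamf1, Cd48, Cd34, Flt3, Procr, Esam and Tek, and 8 of them could be followed here among the 22180 genes measured. They were chosen by name, with earlier results of these data known. Each gene was represented by the array feature that names only that gene, with the highest mean over all 5 arrays where there were several, and each of the 8 had 1 such feature. No feature named Ly6a alone, so Ly6a, which encodes the marker Sca-1, is not analysed here. The tested cells were hematopoietic stem cells (HSCs) sorted after stem and progenitor cells of C57BL/6 mice had been cultured with 5 µM all-trans retinoic acid (ATRA) for 24 h, and 2 arrays measured them. ATRA, made by cells from vitamin A, binds the nuclear retinoic acid receptors. The 3 control arrays measured HSCs from parallel cultures with the solvent DMSO for 24 h. Nothing in the labels says that the arrays of a group stem from different mice or dishes, so p-values measure the spread between these arrays alone, and part or all of it may be technical. The labels do not name the markers of the gate.

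HSCs are rare marrow cells from which all blood lineages are renewed, and they are isolated by the proteins on their surface. In mouse marrow the usual gate takes lineage-negative cells that carry Sca-1 and KIT, then cells with the SLAM receptor CD150 (Slamf1) and without its relative CD48. CD34 and FLT3 are low on the most primitive cells and rise on multipotent progenitors, while EPCR (Procr), ESAM and TIE2 (Tek) are carried by HSCs and also by endothelial cells. A gate reads protein on single cells, whereas the arrays read RNA of the sorted population. In such bulk samples, fewer cells that express a gene and less RNA per cell cannot be told apart.

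The 2 ATRA arrays differed from the DMSO arrays across the whole measurement, and this touches every value given here. The SD over all features was 1.77 and 1.49 in the ATRA arrays and 1.96 to 1.97 in the DMSO arrays, and Pearson's r across features was 0.730 between the ATRA arrays and 0.966 to 0.978 among the DMSO arrays. ATRA replicate 1 correlated with the DMSO arrays at 0.811 to 0.834, more closely than with ATRA replicate 2, and ATRA replicate 2 at 0.602 to 0.641. Genes with high DMSO values had lower values in both ATRA arrays. The deposited values are on a log2 scale. Of 22180 genes, 3428 were lower with ATRA (15.5%) and 1437 higher (6.48%) by limma, at a Benjamini-Hochberg adjusted p under 0.05. This split moved with the scaling, to 4542 lower and 560 higher after median centring, 1132 and 1102 after cyclic loess normalization, and 286 and 396 with the trend on level removed. The labelled cell type was checked on defining genes. In the ATRA and in the DMSO arrays, Hlf was at 7.71 and 7.39, against 8.76 to 8.97, and Mecom at 7.12 and 6.04, against 8.48 to 9.07. The T cell gene Cd3e was at 5.69 and 6.73 in ATRA and 5.31 to 5.76 in DMSO, and the granulocyte gene Ly6g at 4.79 and 5.41, against 4.64 to 5.00. The medians of all features were 6.13 and 6.21 in the ATRA arrays and 5.86 to 5.92 in the DMSO arrays. No detection calls were used here, so a dim value does not show that a transcript was absent.

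Of the 8 marker genes, Kit, Tek and Flt3 fell with ATRA, none rose, and Slamf1, Esam, Cd34, Procr and Cd48 did not pass the threshold. At an unadjusted p under 0.05 by limma there were 5 lower (Slamf1 and Esam in addition) and 0 higher. Of all 22180 genes, 8935 were under it in either direction. The 3 lower genes are 37.5% of the 8, beside 15.5% of all genes. For 6 of the 8, both ATRA values lay below all 3 DMSO values, as they did for 29.2% of all genes, and for 0 of 8 they lay above, beside 33.0%. The median log2 fold change (ATRA minus DMSO) was -1.04 for the 8 markers and 0.16 for all genes. The share of all genes is not matched for level. Among genes with a DMSO mean within 0.25 log2 units of the marker, 42.5% were called lower for Kit, 28.3% for Tek and 5.91% for Flt3. For the markers that did not pass, these shares were 52.8% (Cd34), 40.2% (Slamf1), 36.3% (Procr), 23.8% (Esam) and 0.767% (Cd48). The markers differ in their DMSO values, from 6.17 for Cd48 to 10.94 for Kit, and genes of the same DMSO level are set beside each of them after the single genes.

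**Figure D1:**
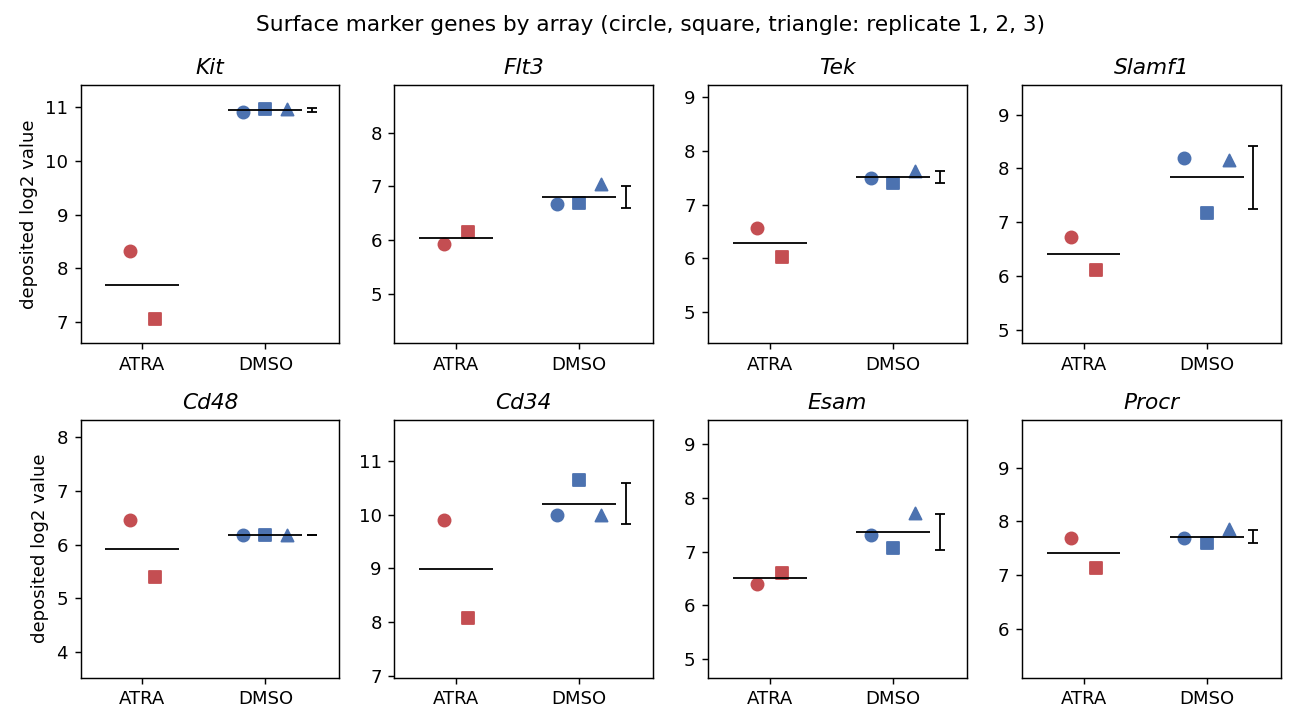
Deposited log2 values of the 8 marker genes in each array, ATRA (red, 2 arrays) at the left and DMSO (blue, 3 arrays) at the right of each panel. Horizontal lines are group means, the black bar is ± 1 SD of the DMSO arrays, and every panel spans the same number of log2 units. Kit shows the widest gap, while the ATRA values of Cd48 lie on either side of the DMSO values and those of Procr reach into them.

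The promoters of the 3 genes that fell are shown first, together with that of Procr, because these are the members in which motif matches, or their absence, are described next. Each sequence holds the 250 bases before the start site in RefSeq (GRCm38.p6), on the strand of the gene. Capitals mark matches on either strand to the receptor half-site AGGTCA, its direct repeat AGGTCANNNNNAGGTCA, the GATA factor motif AGATAA or the ETS factor motif GGAAGT. The repeat contains the half-site, and no other pair of these motifs shares its letters. A run without capitals holds none of the 4.
Kit, chr5:75574737-75574986, plus strand: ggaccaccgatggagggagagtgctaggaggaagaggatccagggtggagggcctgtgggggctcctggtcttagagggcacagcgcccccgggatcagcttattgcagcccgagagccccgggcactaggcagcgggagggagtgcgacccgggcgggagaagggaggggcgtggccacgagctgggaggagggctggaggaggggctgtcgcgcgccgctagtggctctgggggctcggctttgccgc
Tek, chr4:94739039-94739288, plus strand: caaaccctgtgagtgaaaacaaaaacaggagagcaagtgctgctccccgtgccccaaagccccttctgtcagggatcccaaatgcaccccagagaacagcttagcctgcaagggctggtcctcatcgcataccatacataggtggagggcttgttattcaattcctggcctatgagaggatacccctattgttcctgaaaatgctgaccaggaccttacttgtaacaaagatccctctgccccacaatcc
Flt3, chr5:147400490-147400739, minus strand: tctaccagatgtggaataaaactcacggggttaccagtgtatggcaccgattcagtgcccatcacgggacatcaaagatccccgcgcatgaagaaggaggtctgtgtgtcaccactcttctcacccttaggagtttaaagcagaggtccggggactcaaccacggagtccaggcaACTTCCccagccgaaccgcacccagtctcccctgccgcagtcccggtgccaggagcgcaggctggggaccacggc
Procr, chr2:155750967-155751216, plus strand: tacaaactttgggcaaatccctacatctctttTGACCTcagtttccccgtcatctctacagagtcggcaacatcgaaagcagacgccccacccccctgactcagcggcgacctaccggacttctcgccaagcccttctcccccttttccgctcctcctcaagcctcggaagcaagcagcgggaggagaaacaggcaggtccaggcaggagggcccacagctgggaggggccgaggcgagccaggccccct

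RefSeq promoters were given for 7 of the 9 genes (Kit with 2 start sites). The half-site stood in that of Procr, from position -218 to -213 relative to the start, and in 14.0% of the 32851 promoters of the same length. The ETS motif stood in the Flt3 promoter, from -75 to -70, and in 19.7% of all. The GATA motif (9.99% of all) and the direct repeat (0.00913% of all) stood in 0 of the 7. A match describes the letters and is no evidence of a bound site.

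Kit and Flt3 encode related receptor tyrosine kinases of class III, the receptors for stem cell factor and for FLT3 ligand. Kit had log2 values of 8.32 and 7.06 in the ATRA arrays, against 10.90, 10.97 and 10.96 in the DMSO arrays. The DMSO values lay within a narrow band (SD 0.04), and ATRA replicate 2 was the lower of the ATRA values. Kit fell by 3.25 on the log2 scale (SE 0.40, 95% interval -4.31 to -2.20, limma adjusted p = 0.0125), which is 9.54-fold lower. Flt3 was at 5.94 and 6.16 in ATRA and at 6.68, 6.69 and 7.04 in DMSO. Its groups did not overlap, and it fell by 0.75 (SE 0.18, adjusted p = 0.0468), near the threshold. Adjusted over all 41345 features in place of genes, Kit (adjusted p = 0.0178) and Tek (0.0356) passed and Flt3 did not (0.0697).

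Tek encodes TIE2, the angiopoietin receptor that ties HSCs to their niche and is also an endothelial receptor. It was at 6.56 and 6.03 in the ATRA arrays and at 7.50, 7.41 and 7.63 in the DMSO arrays, with no overlap. The gene fell by 1.22 (SE 0.20, interval -1.76 to -0.68, adjusted p = 0.0236), a 2.33-fold lower value. The other endothelial TIE receptor gene, Tie1, fell as well, with 7.78 and 6.97 in ATRA against a mean of 9.09 ± 0.08 in DMSO (SD, n = 3, log2 fold change -1.71, adjusted p = 0.0209). With the level trend removed Tie1 differed by -0.06 (adjusted p = 0.837), and after cyclic loess normalization by -0.20 (adjusted p = 0.419). Angpt1, the ligand that activates TIE2, differed by -2.48 without passing (adjusted p = 0.0701), at 9.06 and 6.79 in the ATRA arrays, which lie far apart, and 10.31 to 10.51 in DMSO. Angpt2, Angpt4 and the TIE2 phosphatase gene Ptprb differed by 0.09, 0.35 and 0.39 and did not pass.

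The SLAM receptors Slamf1 and Cd48, whose genes lie near each other on chromosome 1, are read in opposite ways by the gate. Slamf1 (CD150) was at 6.72 and 6.10 in ATRA and at 8.20, 7.16 and 8.15 in DMSO. Both ATRA values were below the DMSO values, but DMSO replicate 2 lay nearer to ATRA replicate 1 than to the other DMSO values (SD 0.59 over the 3). The difference was -1.43 (SE 0.42, interval -2.53 to -0.32) and did not pass (adjusted p = 0.075). Cd48 was at 6.45 and 5.40 in ATRA and at 6.17 in every DMSO array. The ATRA values lay on either side of DMSO, and the difference was -0.25 (interval -1.14 to 0.65, adjusted p = 0.562). The 3 DMSO values of Cd48 were the same to the last deposited digit, as in 1435 genes (6.47%), so their SD of 0 is no measure of spread.

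Cd34 encodes the sialomucin that separates primitive HSCs from progenitors. It had values of 9.90 and 8.08 in the ATRA arrays and 9.98, 10.65 and 9.98 in the DMSO arrays. ATRA replicate 1 was within 0.1 of the lower DMSO values, while replicate 2 was far below them. The difference of -1.21 did not pass (SE 0.61, interval -2.82 to 0.40, adjusted p = 0.201). DMSO replicates 1 and 3 shared their value of Cd34 to the last digit, and 47.8% of all genes had such a repeat between at least 2 arrays.

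Esam, an adhesion molecule of cell junctions that is found on HSCs and endothelium, was at 6.39 and 6.61 in ATRA and at 7.31, 7.07 and 7.72 in DMSO. The groups did not overlap, and the difference of -0.86 (SE 0.23, interval -1.48 to -0.24) did not pass (adjusted p = 0.064). Procr encodes EPCR, the receptor for protein C, and is among the most selective HSC markers. It was at 7.68 and 7.13 in ATRA and at 7.68, 7.60 and 7.85 in DMSO. ATRA replicate 1 had exactly the value of DMSO replicate 1, and 21.2% of all genes had such a repeat between an ATRA and a DMSO array. The difference of -0.30 (interval -0.87 to 0.26) did not pass (limma adjusted p = 0.291). An exact two-sided permutation test over the arrays of a single gene cannot go below p = 0.1 with 2 against 3 arrays, the value reached by Kit, Cd34, Flt3, Esam and Tek. The exact test gave p = 0.2 for Slamf1, 0.3 for Procr and 0.7 for Cd48.

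Setting each marker beside genes of the same DMSO level divided the list into genes below, around and above their level. For this description the genes with a DMSO mean within 0.25 log2 units of the marker were taken, and no test was made. The 134 genes at the level of Kit had a median difference from DMSO of -1.22 in ATRA replicate 1 and -3.26 in replicate 2, where Kit itself differed by -2.63 and -3.88. Kit lay outside their lower quartile of -2.20 in replicate 1 and inside that of -4.16 in replicate 2, and 42.5% of these genes were called lower. Flt3 differed by -0.87 and -0.64, outside the lower quartile of its 1793 neighbours in both arrays (medians -0.05 and -0.04, lower quartiles -0.41 and -0.51). Tek, at -0.95 and -1.49, was likewise outside the lower quartile in both arrays (medians -0.51 and -0.80, lower quartiles -0.90 and -1.32). Slamf1 and Esam were also below the median of their level in both arrays, which makes 5 of the 8 markers.

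Cd34 and Procr stood on the other side. Cd34 differed by -0.31 and -2.12, above the upper quartiles of -0.57 and -2.57 of the 303 genes at its level (whose median log2 fold change was -2.32, beside -1.21 for Cd34). Procr differed by -0.03 and -0.58 beside medians of -0.63 and -0.99 among 1692 genes, above the median in both arrays and above the upper quartile of -0.15 in replicate 1 alone. Cd48 was mixed, at 0.28 and -0.78 beside medians of 0.11 and 0.38. In the plot of change against DMSO level, Kit, Tek and Slamf1 lie under the running median and Cd34 and Procr over it in both arrays.

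**Figure D2:**
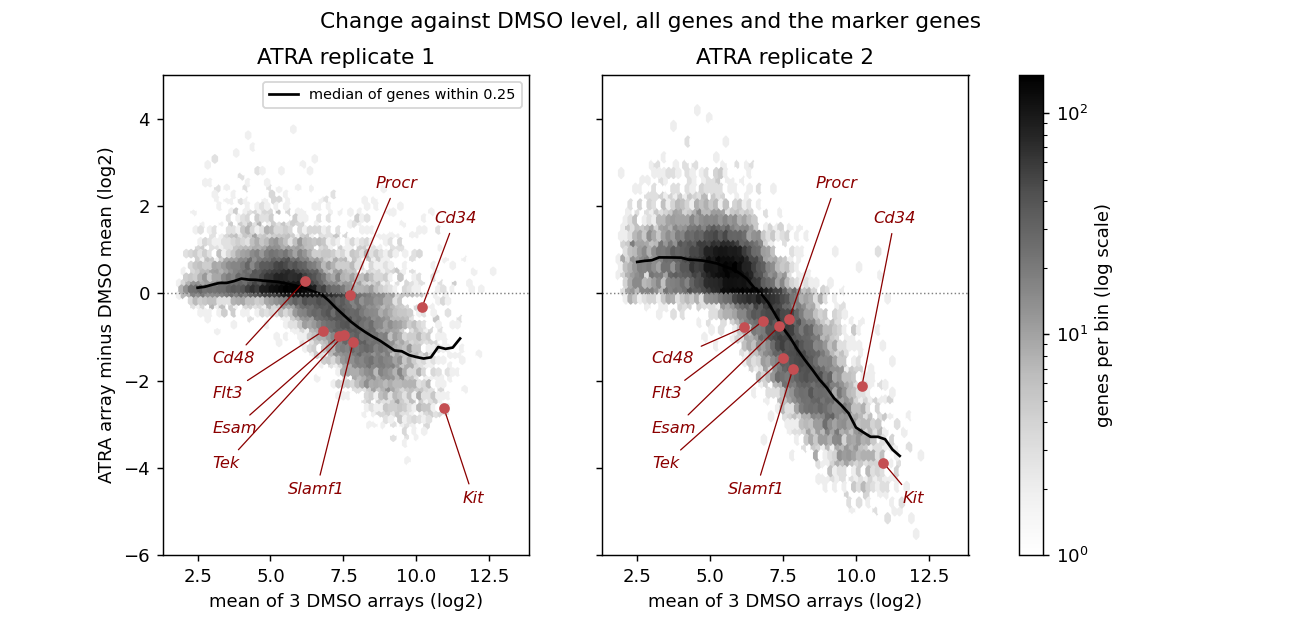
Difference of each ATRA array from the DMSO mean (vertical, log2) against the DMSO mean (horizontal, log2) for all 22180 genes, in grey bins whose darkness gives the number of genes on a log scale. The black line is the median of genes within 0.25 log2 units, drawn where at least 50 genes fall there, and red points are the 8 markers. The downward trend is steeper in ATRA replicate 2, and Cd34 lies above the line in both panels.

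Removing the trend on level from every array by a loess curve before the fit uses the same relation to level as the description just given, and is no separate evidence for it. The log2 fold changes were then -0.96 for Kit (limma adjusted p = 0.104), -0.64 for Flt3 (0.124), -0.57 for Tek (0.111), -0.55 for Slamf1 (0.379), -0.53 for Cd48 (0.439) and -0.33 for Esam (0.478). Those of Cd34 and Procr changed sign to 0.89 (adjusted p = 0.129) and 0.49 (0.14). None of the 8 passed in this fit, where 1.29% of all genes were called lower. At an unadjusted p under 0.05 by limma, in either direction, there were 5 of the 8, beside 5436 of the 22180 genes. Of these markers Kit, Flt3 and Tek had negative differences, and Cd34 and Procr had positive ones. After cyclic loess normalization, Kit (-1.15, adjusted p = 0.0365) and Flt3 (-0.82, adjusted p = 0.0434) passed and Tek did not (-0.81, adjusted p = 0.0531), while Cd34 and Procr had differences of 0.93 and 0.62 that did not pass. The calls also depended on the control arrays. Without DMSO replicate 1, 2 or 3 none of the 8 passed, Kit having an adjusted p of 0.0808, 0.0781 and 0.0804, and neither did any other gene (5991, 6065 and 5907 genes had an unadjusted p under 0.05 by limma). Without ATRA replicate 1 or 2, Kit differed by -3.88 and -2.63 and Tek by -1.49 and -0.95. A fit with a lone ATRA array assumes that it varies like the DMSO arrays, so only marker differences are given from these fits. Cd48 differed by -0.78 without ATRA replicate 1 and by 0.28 without replicate 2, and its DMSO values, all the same, give no measure of spread. Cd34 differed by -2.12 and -0.31 and Procr by -0.58 and -0.03. Flt3 differed by -0.64 and -0.87.

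**Figure D3:**
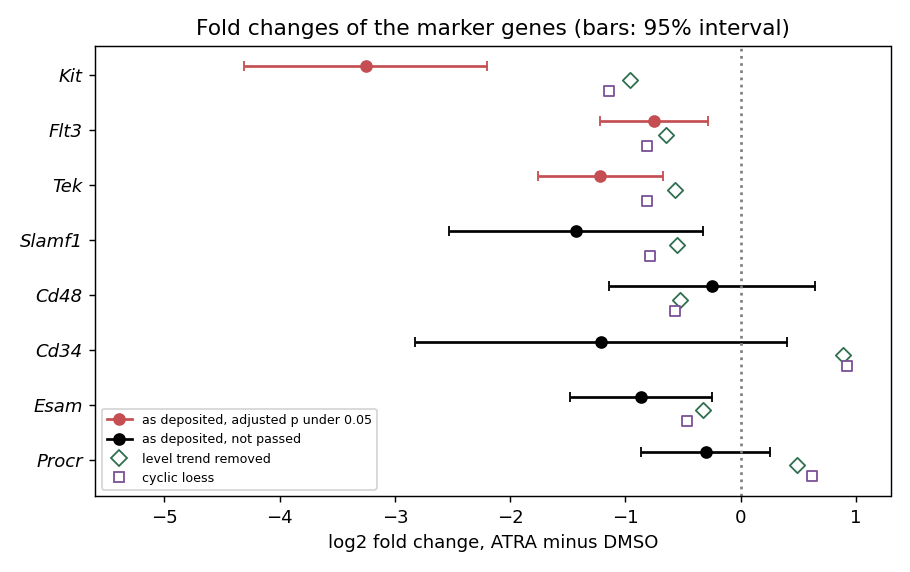
Log2 fold change (ATRA minus DMSO) of each marker gene as deposited, with its 95% interval (red where the limma adjusted p is under 0.05), with the level trend removed (diamonds) and after cyclic loess normalization (squares). Kit moves from -3.25 to -0.96 and -1.15, and the diamonds and squares of Cd34 and Procr lie right of 0.

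Relatives and partners of the markers were taken from lists written with earlier results of these data known, and their counts are descriptions. Of 6 further genes of class III kinases and their ligands (Csf1r, Pdgfra, Pdgfrb, Kitl, Csf1 and Il34), 0 passed in either direction. Of all genes, 15.5% were lower and 6.48% higher. The median log2 fold change of the 6 was 0.11 (limma, 1 lower and 0 higher at an unadjusted p under 0.05). Csf1r, the macrophage receptor, was at 6.27 and 6.43 in ATRA and 5.94 to 6.27 in DMSO. Of 21 signalling genes downstream of Kit and Flt3, 12 fell and 0 rose (57.1% lower, beside 15.5% of all genes), with a median of -1.80. The kinase gene Fes fell by 1.85 (adjusted p = 0.00747), the phosphatase gene Ptpn6 by 1.89 (0.00876) and Stat5b, a transcription factor activated by both receptors, by 1.80 (0.0102). These genes also had high DMSO values (median 8.35), and with the level trend removed 1 of the 21 fell and 0 rose, the median was -0.33 and Ptpn6 differed by 0.25. That gene, named after its values were seen, was the adaptor gene Gab2 (-1.10, adjusted p = 0.0427).

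In the SLAM family besides Slamf1 and Cd48, the differences as deposited were positive. These genes had low DMSO values (median 5.64), and genes at the level of Cd48 (6.17) had median differences above 0 in both ATRA arrays. Of 9 members and adaptors, 0 passed in either direction (3 higher and 0 lower at an unadjusted p under 0.05). Of all genes, 15.5% were lower and 6.48% higher. The median log2 fold change of the 9 was 0.41. Slamf6 was at 5.91 and 6.68 in ATRA, against 5.02 to 5.44 in DMSO (difference 1.04, adjusted p = 0.0676). Cd244a, another SLAM receptor that is low on HSCs and present on progenitors, was at 7.30 and 6.45 in ATRA and at 6.29 to 6.47 in DMSO (difference 0.48, adjusted p = 0.249). With the level trend removed, the median of the 9 was 0.31. Slamf7 (-0.14), Slamf9 (-0.11), Sh2d1a (-0.45) and Sh2d1b1 (-0.19) turned negative in that fit, and the others stayed positive. Cd84, a self-binding SLAM receptor, was the only member of the family to pass in it (0.86, limma adjusted p = 0.0427). As deposited, Cd84 differed by 0.23 and did not pass (adjusted p = 0.326). Whether the change of Slamf1 differs from that of its relatives was not tested.

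Among 5 other sialomucins related to Cd34 or like it in their mucin structure, 3 fell (beside 15.5% of all genes) and 0 rose (beside 6.48%), with a median of -1.02. Podxl, the closest relative of Cd34, fell by 1.02 (adjusted p = 0.0395), Selplg, the ligand of P-selectin, by 1.85 (0.0411), and Spn, the leukosialin CD43, by 0.72 (0.0422). The differences of all 3 turned positive with the level trend removed (0.11, 0.47 and 0.84) and did not pass. Emcn, which encodes endomucin, was at 9.27 and 6.49 in ATRA and 7.09 to 7.20 in DMSO, so that its ATRA arrays lay on either side of DMSO. Of 8 junction genes besides Esam, F11r fell (12.5%, beside 15.5% of all genes) and Cdh5 rose (12.5%, beside 6.48%). F11r, which encodes the junctional adhesion molecule JAM-A, was at 5.46 and 5.97 in ATRA and at 9.85, 9.35 and 9.74 in DMSO. It fell by 3.93 (SE 0.24, adjusted p = 0.00639), or 15.3-fold, and with the level trend removed differed by -2.04 without passing (adjusted p = 0.121). After cyclic loess normalization F11r differed by -2.63 and passed (limma adjusted p = 0.025). In that fit 1 of the 8 junction genes was lower and 2 were higher, beside 1132 and 1102 of all 22180 genes. In the protein C pathway, 1 of 6 genes besides Procr fell (16.7%, beside 15.5% of all genes). It was F2r, which encodes the thrombin receptor PAR1 (log2 fold change -2.30, limma adjusted p = 0.00983). In the LY6 family, which includes Ly6a, 13 genes were measured, of which 7.69% were lower and 7.69% higher, beside 15.5% and 6.48% of all genes. Ly6e, an interferon-induced member, fell by 2.70 (10.70 and 9.50 in ATRA, 12.71 to 12.98 in DMSO, adjusted p = 0.0173), Ly6i rose by 1.14 (adjusted p = 0.047) and 11 did not pass. With the level trend removed, the fall of Ly6e shrank to a difference of -0.22 and the rise of Ly6i to 0.47, and neither passed.

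Other surface genes used to mark stem and progenitor cells were also lower in part. Of 31 measured, 12 fell (38.7%, beside 15.5% of all genes), 1 rose (3.23%, beside 6.48%) and 18 did not pass, with a median of -0.99. Icam2, an adhesion molecule shared with endothelium, fell by 1.61 (adjusted p = 0.00695). The integrin subunit genes Itga2b and Itgb3, which together form the platelet fibrinogen receptor, had log2 fold changes of -2.07 (adjusted p = 0.00792) and -2.55 (0.0132). The gene that rose was the Fc receptor gene Fcgr3, at 6.99 and 6.82 in ATRA and 6.02 to 6.24 in DMSO (0.76, adjusted p = 0.0261). With the level trend removed, 0 of the 31 passed in either direction and their median was 0.02.

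Of 17 transcription factor and other identity genes of HSCs, 9 fell (52.9%, beside 15.5% of all genes), 0 rose (beside 6.48%) and 8 did not pass, with Erg (-2.83), Hlf (-1.33) and Gata2 (-2.99) having the smallest p. With the level trend removed, 0 of the 17 passed and their median log2 fold change was 0.14, against -1.33 as deposited. In that fit Hlf differed by 0.21, Erg by -1.22 (limma adjusted p = 0.097) and Gata2 by -0.85 (0.0636). After cyclic loess normalization 3 of the 17 were lower and 1 higher. Erg (-1.68, limma adjusted p = 0.0166) and Gata2 (-1.10, 0.0163) passed there, and Hlf (0.15, 0.695) did not. By the pattern over the 5 arrays, each centred on the gene's own mean, Gata2 was the nearest to Kit among 201 other genes of all lists (Euclidean distance 0.34 log2 units). Fgd5, an HSC reporter gene, was nearest to Tek (0.23) and to Slamf1 (0.75), and Esam and Flt3 were nearest to each other (0.26). Hoxa9 was nearest to Procr (0.18), the endothelial adhesion gene Pecam1 to Cd48 (0.22) and Ctnnal1 to Cd34 (0.57). All these distances rest on the same 5 arrays.

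Lineage markers, which the usual gate excludes, and markers of other cells that carry some of the 8 genes held few genes that passed. The 12 T and NK cell genes held 2 higher (16.7%, beside 6.48% of all genes) and 0 lower, with a mean log2 level of 6.12 and 6.20 in the ATRA arrays and 5.44 to 5.62 in the DMSO arrays. Those that rose were Cd8b1 (0.93, adjusted p = 0.0448) and Cd3g (0.57, adjusted p = 0.0462). With the level trend removed Cd8b1 differed by 0.54 and Cd3g by -0.03, and neither passed. In that fit 1 of the 12 was higher and 0 were lower, beside 396 and 286 of all 22180 genes. It was Nkg7, named after its values were seen (0.83, limma adjusted p = 0.0427, against -0.01 as deposited). The 19 myeloid genes held 2 higher (10.5%, beside 6.48% of all genes) and 1 lower (5.26%, beside 15.5%). The mean myeloid level was 6.48 and 6.26, against 6.25 to 6.47. Csf3r, the G-CSF receptor, which progenitors also express, fell by 2.39 (adjusted p = 0.00747), and the neutrophil gene S100a9 rose by 0.81 (0.0259). With the level trend removed Csf3r differed by -0.51 and S100a9 by 0.37, and neither passed. Of 10 B cell genes 1 rose (10%, beside 6.48% of all genes) and 0 fell (beside 15.5%). Of 7 erythroid genes 0 passed (1 higher and 1 lower at an unadjusted p under 0.05). Of 9 megakaryocyte genes the 2 integrin genes already named fell (22.2%, beside 15.5%) and 0 rose. With the level trend removed Itga2b differed by -0.34 and Itgb3 by -0.82, and neither passed (limma adjusted p = 0.653 and 0.382). In that fit 1 of the 9 was higher, beside 396 of all 22180 genes, and 0 were lower. It was Pf4, named after its values were seen (1.84, adjusted p = 0.0362, against -0.17 as deposited). After cyclic loess normalization 2 of the 9 were higher and 0 lower. Mean levels of these lists were 5.69 and 6.06 against 5.41 to 5.50 for B cell genes and 6.04 and 6.51 against 6.11 to 6.34 for erythroid genes. For megakaryocyte genes they were 7.20 and 6.97 against 7.36 to 7.51.

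Endothelial cells also carry Tek, Esam, Procr and Cd34. Of 15 other endothelial genes, 1 rose (6.67%, beside 6.48% of all genes) and 2 fell (13.3%, beside 15.5%), shares near those of all genes. Cdh5, the VE-cadherin gene that defines endothelium, was at 6.90 and 7.22 in ATRA and at 6.10 to 6.34 in DMSO (rise of 0.83, adjusted p = 0.0325), while Tie1 and Robo4 fell. The mean endothelial level was 6.76 and 6.55 in ATRA and 6.64 to 6.71 in DMSO. Mast cells keep KIT, and of their 10 genes only Gata2, which HSCs express too, passed, and it fell (10%, beside 15.5% of all genes). Cpa3, a defining mast cell gene, was at 5.41 and 4.55 in ATRA and at 4.38 to 4.49 in DMSO, and the mean mast cell level was 5.09 and 5.45 against 4.78 to 4.97. Of 9 stromal genes 1 rose (11.1%, beside 6.48% of all genes), namely Dcn (0.90, limma adjusted p = 0.0389), and 0 fell. With the level trend removed Dcn differed by 0.24 without passing. The mean stromal level was 5.76 and 6.22 against 5.55 to 5.71. Many of these genes had low DMSO values, and genes at the low level of Cd48 had median differences above 0 in both ATRA arrays. The part of other cell types in the marker values was not tested.

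**Figure D4:**
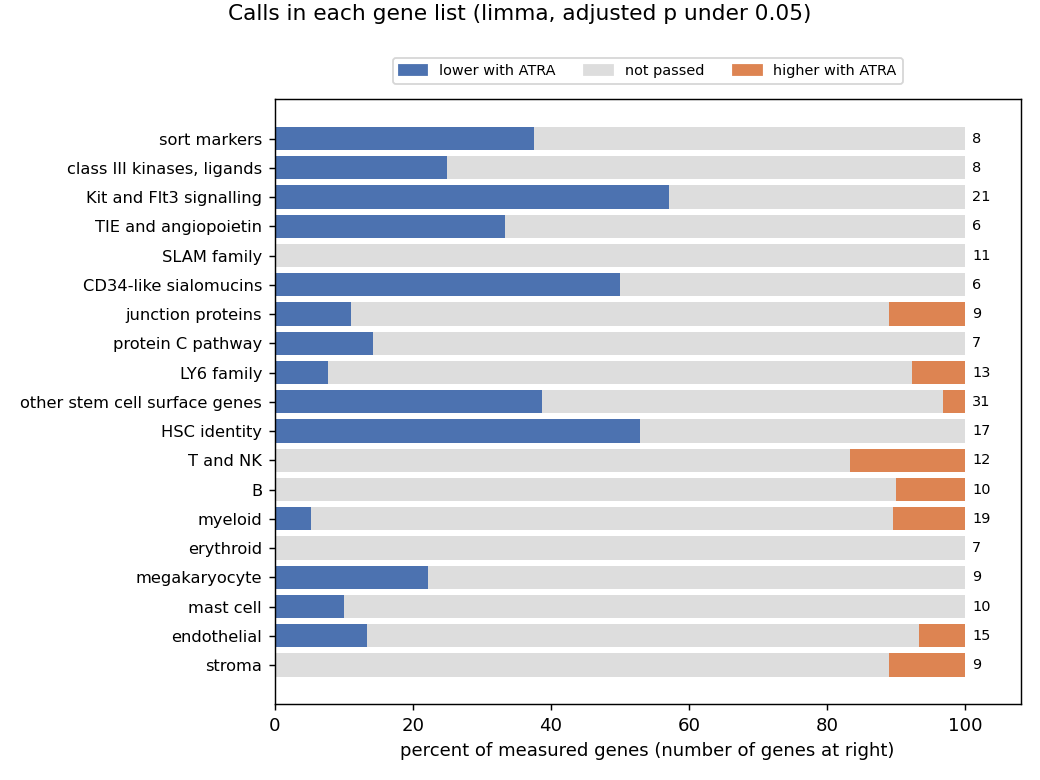
Percent of measured genes in each list that were lower (blue), not past the threshold (grey) or higher (orange) with ATRA, with the number of genes at the right (limma, adjusted p under 0.05 over all genes). The sort markers stand at 37.5% lower, Kit and Flt3 signalling at 57.1% and the SLAM family at 0% in both directions, beside 15.5% lower and 6.48% higher for all genes.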

How the data were processed

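The authors deposited log2 expression values, 1 per feature and array, from an Affymetrix mouse array. Per the labels' protocols, RNA of the sorted cells was purified, DNase-treated and labelled with biotin. RMA, limma 3.28.20 and oligo 1.36.1 are listed, without their roles, per the submitters' processing notes. The genome build is not given in the sources used here. Values were used as deposited, without a filter, and the number of arrays limits their precision.

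Of 41345 features, 23521 named 1 gene in the platform table, with symbols updated by gene identifier through RefSeq (GRCm38.p6, 23328 matched), 1814 named several and were not used for names, and 16010 had no gene listed. ATRA and DMSO, grouped by sample title, were compared by limma (3.58.1, R 4.3.3) with lmFit and eBayes, two-sided, over all 22180 genes, after a check on simulated data. The members and gene lists were chosen with earlier results of these data known. All members were named, and from other lists up to 3 genes past the threshold and up to 2 others by smallest p, plus any gene of the kinase, SLAM, TIE and sialomucin lists, with exceptions stated. Defining marker genes were shown as checks. Alternatives were leaving out arrays, a replicate block, a filter on dim features, 4 rescalings, another variance prior and averaged features.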

Additional observations from a re-analysis of the deposited data

How the results depend on the processing

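With 2 ATRA and 3 DMSO arrays the counts moved widely with the processing, and the causes were not tested. Of all genes, 1437 were higher and 3428 lower. The counts were 942 higher with dim features left out, 560 higher after median centring, 485 higher and 859 lower after quantile normalization, 1132 lower after cyclic loess normalization, and 396 higher and 286 lower with the level trend removed. Leaving out 1 array gave 0 to 7424 higher and 0 to 6783 lower. The highest counts in both directions came from the fit without ATRA replicate 1. That fit assumes that the lone ATRA array varies like the DMSO arrays, so no conclusion is drawn from these counts. Of the marker genes, 3 were lower and 0 higher with all 5 arrays. There were 5 lower after median centring, 1 after quantile normalization and 0 with the level trend removed. In that last fit, 5 markers and 5436 genes had an unadjusted p under 0.05 by limma, in either direction. Without any 1 of the DMSO arrays, 0 markers were lower and 0 higher. With the replicate number as a replicate block, which left 1 residual degree of freedom, 0 genes and 0 markers passed (limma, 5412 genes and 3 markers at an unadjusted p under 0.05). The labels do not say that a number marks a shared culture, and deviations of same-numbered arrays correlated at 0.134 and 0.0983. Signs turned for Cd34 after cyclic loess (0.93) and with the level trend removed (0.89), for Procr after quantile normalization (0.55), cyclic loess (0.62) and trend removal (0.49), and for Cd48 without 1 array (-0.78 to 0.28). The sign was negative for Kit, Flt3, Tek, Slamf1 and Esam in all 13 alternatives.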
